A study of Mus musculus with 4 samples.

Results

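The replication-type histone genes were taken as every gene whose symbol starts with Hist1h, Hist2h, Hist3h or Hist4h. There were 67 of them among the 31017 gene symbols of the deposited matrices, and 52 had at least 50 unique molecular identifiers (UMIs, each standing for 1 captured RNA molecule) over the 4 libraries. They were read in single-cell RNA libraries of mouse testis, 1 library per group, so no difference below has a replicate check and none was tested. All mice were Acr-Gfp transgenic on the C57BL/6 background, controls included. For both culture libraries, fragments of testes from mice aged 7 days postpartum (dpp) were kept on an agarose bed under a ceiling of PDMS, a silicone, with AlbuMAX, a lipid-rich albumin, added to the α-MEM medium. They were taken after 2 days (culture day 2) or after 7 days (culture day 7). The other libraries were uncultured testes of 9 dpp and 14 dpp, the ages that the culture days add up to. Culture day 2 and 9 dpp are called the younger pair, and culture day 7 and 14 dpp the older pair. The number of animals behind each library is not given in the sources used here, and the labels' library protocol names female gonads although the tissue is labelled testis. Markers of spermatogonia, Sertoli cells and Leydig cells were detected in all 4 libraries.

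Replication-type histone genes encode the H2A, H2B, H3 and H4 proteins around which new DNA is wrapped in S phase, and the H1 linker histones that bind DNA between nucleosomes. Most sit in dense clusters without introns, and their canonical messenger RNA ends just after a short stem-loop, bound by the protein SLBP, in place of a poly(A) tail. In the testis, spermatogonia divide by mitosis, preleptotene spermatocytes carry out the last DNA replication before meiosis, and germ cells then take up testis forms such as H1t, TH2A and TH2B. The libraries were made from the 3′ end of poly(A) RNA, so a stem-loop transcript without a tail is captured poorly and the UMIs below stand for the forms that were captured.

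All 67 genes were found in GENCODE M21 on GRCm38. The histone stem-loop was found in the annotated transcript of 45 of them, against 86 of 55450 genes, or 0.155%, in the whole annotation. In the sites below, shown because they mark how each gene's canonical RNA ends, the 16 bases of the stem-loop are in capitals and the flanks are in lower case, 5′ to 3′.
Hist1h2ap: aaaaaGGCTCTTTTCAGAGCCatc
Hist1h1c: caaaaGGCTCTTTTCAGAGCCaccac
Hist3h2a: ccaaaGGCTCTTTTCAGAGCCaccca
Hist1h2ae: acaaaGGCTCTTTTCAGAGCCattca
Hist1h1t: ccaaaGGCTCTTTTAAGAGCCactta
Hist1h4i: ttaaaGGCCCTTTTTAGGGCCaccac
The form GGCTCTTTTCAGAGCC, present in Hist1h2ap, Hist1h1c, Hist3h2a and Hist1h2ae, was the most frequent and was held by 25 genes. The form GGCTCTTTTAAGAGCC of Hist1h1t was held by 6 genes, and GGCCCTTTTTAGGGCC of Hist1h4i by 2. The annotated Hist1h2ap transcript stops 3 bases after its stem-loop, that of Hist1h2ae 151 bases, that of Hist1h1t 185 bases, that of Hist1h4i 330 bases, that of Hist1h1c 840 bases and that of Hist3h2a 1643 bases after it. No stem-loop was found in the annotated transcripts of Hist1h1a, Hist1h2aa, Hist1h2ba and Hist1h2bc, and the last of these has a second exon. The 17 genes with a poly(A) signal in the last 50 bases had a median of 242 UMIs over the 4 libraries, against 115.5 for the 50 genes without one. The 17 genes held 15181 histone UMIs, or 21.6%, and the 50 genes, Hist1h2ap among them, held 55143, or 78.4%.

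The promoter windows of 61 genes, 250 bases before to 50 bases after the start, were found in the RefSeq table of GRCm38.p6. Both strands were searched for the CCAAT box, the TATAAA form of the TATA box, the octamer ATTTGCAT, the H1 promoter motif AAACACA and the E2F-type motif TTTNNCGC. None of these contains another, and a match is a description of the letters. CCAAT was present in 85.2% of these windows against 37.9% of 27025 promoters of the same length. It was in each of the 6 H1, 17 H2A, 16 H2B and 10 H3 windows and in 3 of the 12 H4 windows. TATAAA was present in 57.4% against 14.2%, ATTTGCAT, in H2A and H2B windows, in 21.3% against 1.75%, and TTTNNCGC in 29.5% against 5.27%. AAACACA was found in 5 of the 6 H1 windows, the exception being Hist1h1a, in 2 H2A windows, among them Hist1h2aa, and in 2 H2B windows, which is 14.8% of the 61 windows against 7.14% of all promoters. The 250 bases before the start of 3 genes are printed with motif matches in capitals, because Hist1h2aa and Hist1h1a stood highest in preleptotene-like cells and Hist1h1c in mesenchymal-like or Leydig-like cells, as described further on. The first lies between Hist1h2aa and the divergent Hist1h2ba.
Hist1h2aa, chr13:23934187-23934436, forward strand: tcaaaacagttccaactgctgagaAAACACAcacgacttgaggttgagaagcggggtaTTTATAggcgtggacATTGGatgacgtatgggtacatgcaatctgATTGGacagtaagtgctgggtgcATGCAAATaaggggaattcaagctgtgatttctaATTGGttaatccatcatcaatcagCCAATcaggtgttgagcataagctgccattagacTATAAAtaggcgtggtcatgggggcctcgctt
Hist1h1a, chr13:23763418-23763667, forward strand: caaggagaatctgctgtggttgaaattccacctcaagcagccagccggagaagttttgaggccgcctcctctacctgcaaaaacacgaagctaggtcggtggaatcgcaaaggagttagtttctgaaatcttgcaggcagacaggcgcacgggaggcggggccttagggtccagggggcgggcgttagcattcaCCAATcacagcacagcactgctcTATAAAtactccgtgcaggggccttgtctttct
Hist1h1c, chr13:23738557-23738806, forward strand: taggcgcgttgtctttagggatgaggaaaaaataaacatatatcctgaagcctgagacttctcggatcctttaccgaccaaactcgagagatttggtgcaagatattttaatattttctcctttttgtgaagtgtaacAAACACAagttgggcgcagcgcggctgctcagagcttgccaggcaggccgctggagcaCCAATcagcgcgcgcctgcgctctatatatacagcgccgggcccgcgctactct
The Hist1h2aa and Hist1h2ba windows overlap on chromosome 13, and both hold 1 ATTTGCAT match.

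Some genes cannot be told apart by their 3′ ends. All 90-base words of the last 300 bases of the Hist1h2ap transcript, chr13:21833026-21833507 on the reverse strand, also occur in another gene, and Hist1h2ao shares all of them, so the Hist1h2ap value may hold reads of its copies. Hist1h1e, chr13:23620629-23622558 on the reverse strand, overlaps Hist1h2be and Gm11398 on the same strand and is likewise uncertain. Hist1h2ba shared 41.7% of its words, Hist1h2ae 7.11%, and Hist3h2a overlaps Trim17 on the same strand. Hist1h1a, chr13:23763666-23764406 on the forward strand, Hist1h2bc, chr13:23684199-23692908 on the forward strand, Hist1h1c, chr13:23738808-23740367 on the forward strand, Hist1h2aa, chr13:23934462-23934851 on the forward strand, Hist1h4i, Hist1h4d and Hist1h1t shared none.

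After filters on genes, mitochondrial UMIs and doublet calls, 4816 to 6877 cells per library were kept, with 32078508 to 57585867 UMIs. Median UMIs per deposited barcode were 3416 on culture day 2, 5417 on culture day 7, 8489 at 9 dpp and 6269 at 14 dpp. Pairs of libraries shared between 0.677% and 1.35% of the barcodes of the smaller library. Cells were put into sets by marker UMIs, none of which was a histone gene, and are called germ-like, Sertoli-like and so on for that reason. Germ-like cells numbered 2822, 2557, 2529 and 3655 on culture day 2, culture day 7, 9 dpp and 14 dpp, and Sertoli-like cells 1195, 547, 883 and 978. Pachytene-like cells numbered 261 on culture day 7 and 182 at 14 dpp, but 19 and 10 on culture day 2 and at 9 dpp, where that set was not used. Endothelial-like and macrophage-like sets held at most 48 cells and were not compared. Between 24.6% and 30.6% of germ-like cells lay near the limit for a stage call, and the sets are therefore ranges rather than sharp types.

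The histone genes together made up a small share of the captured RNA. Levels are in UMIs per 1000000 UMIs of the cells summed (CPM), with exact Poisson intervals at 95% that cover counting error only. UMIs at the 3′ end are not scaled by gene length. The 67 genes summed to 238 (232 to 243) CPM on culture day 2, 282 (276 to 287) CPM on culture day 7, 451 (445 to 456) CPM at 9 dpp and 399 (394 to 405) CPM at 14 dpp. Both culture libraries lay below both in vivo libraries. H2A genes held 57.6% of all histone UMIs, from 18 genes of which 13 are reported. H1 genes held 19.2% from 6 genes, H2B genes 14.6% from 18, H4 genes 5.92% from 13 and H3 genes 2.73% from 12. A single gene, Hist1h2ap, held 39.6% of the UMIs, and the 10 highest genes held 84.3%. Genes just inside the limit of 50 UMIs were Hist1h4k with 53, Hist1h2bg with 53, Hist2h2bb with 51 and Hist1h3i with 50. Just outside it were Hist1h2bh with 40, Hist1h3g with 39, and Hist1h2bn and Hist1h4f with 31 each.

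**Figure D1:**
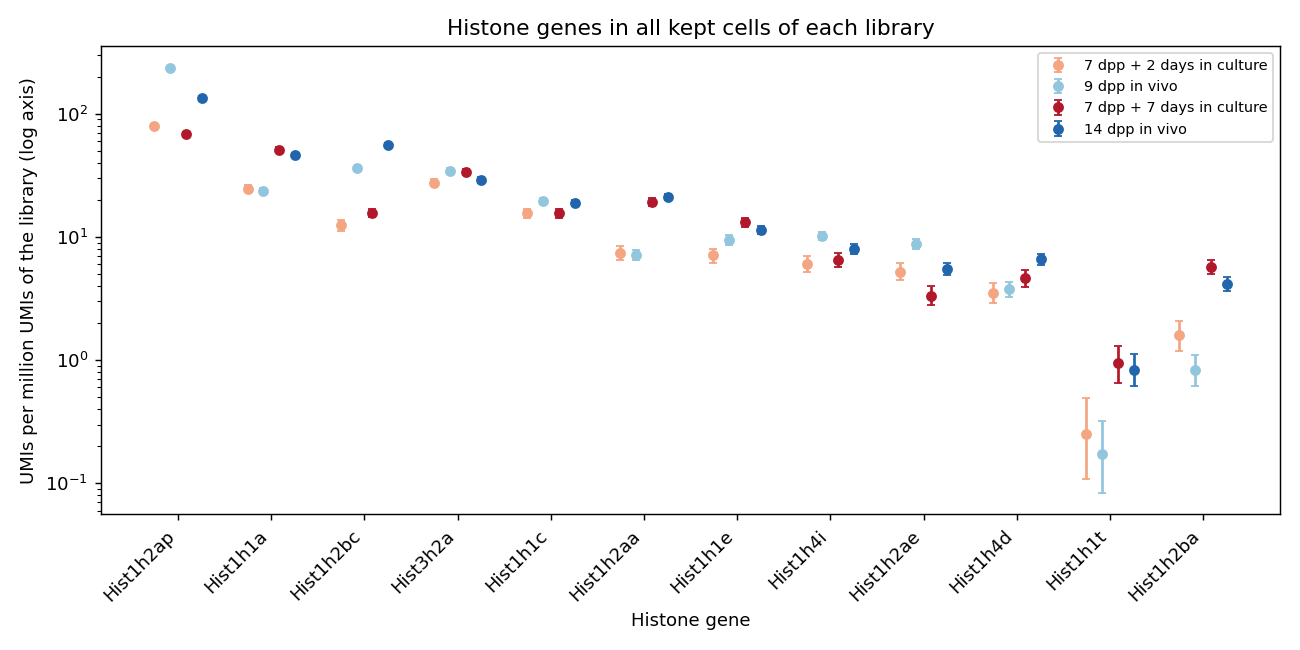
Level of 12 histone genes in each library, in CPM on a log axis, over all kept cells. Points are single libraries and bars are exact Poisson intervals at 95% (counting error only). Hist1h2ap and Hist1h2bc lie lower in both culture libraries than in both in vivo libraries, and Hist1h1a, Hist1h2aa, Hist1h1t and Hist1h2ba lie higher in both libraries of the later age.

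Hist1h2ap, an H2A gene, stood highest in differentiating spermatogonia-like and preleptotene-like cells. In differentiating spermatogonia-like cells it stood at 162 (143 to 183) CPM on culture day 2, 218 (202 to 235) on culture day 7, 641 (624 to 658) at 9 dpp and 366 (353 to 379.9) at 14 dpp. In preleptotene-like cells the values were 256, 268, 393 and 247 CPM in the same order. Among sets of at least 50 cells these were the highest in every library, with the differentiating set first in vivo and the preleptotene set first in culture. Undifferentiated spermatogonia-like cells had 113, 48.7, 93.4 and 102 CPM. After the preleptotene stage the level was low, at 60.7, 13.7, 87.0 and 28.3 CPM in leptotene/zygotene-like cells. Pachytene-like cells had 5.27 CPM on culture day 7 and 30.5 CPM at 14 dpp. In Sertoli-like cells the 9 dpp library, with 85.2 CPM, stood above culture day 2 with 13.5, culture day 7 with 8.11 and 14 dpp with 17.1 CPM.

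RNA of lysed germ cells can reach other droplets, so somatic values of Hist1h2ap were set beside the 12 germ cell markers. The class rule capped germ marker UMIs in somatic cells relative to their own class markers, and put no such limit on Hist1h2ap. The percentages below therefore cannot tell carried-over Hist1h2ap RNA from that made in somatic cells. At 9 dpp Hist1h2ap stood in Sertoli-like cells at 23.3% of its germ-like level, where the germ markers stood at 5.52% of theirs. In mesenchymal-like cells of 9 dpp the values were 23.6% for Hist1h2ap and 1.70% for the markers. At 14 dpp the order in Sertoli-like cells was the other way, 8.13% for Hist1h2ap and 16.7% for the markers. The 14 dpp Sertoli-like cells thus held more germ marker RNA than those of any other library, and its part in their histone values was not tested.

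Hist1h1a encodes a linker histone known from testis, thymus and spleen. Over all kept cells it had 24.7 CPM on culture day 2, 51.3 on culture day 7, 23.6 at 9 dpp and 46.3 at 14 dpp. Preleptotene-like cells were its highest set with at least 50 cells in all 4 libraries, at 97.2 (85.3 to 110.3), 269 (246 to 295), 99.5 (87.9 to 112) and 197 (180.0 to 214) CPM in the same order. The intervals of culture day 2 and 9 dpp overlapped, and the libraries of the later age were higher. In differentiating spermatogonia-like cells it had 51.4, 137, 55.7 and 100.4 CPM. Mesenchymal-like cells had 2.85 to 4.97 CPM.

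Hist1h2aa, Hist1h2ba and Hist1h1t encode TH2A, TH2B and H1t, the testis forms of H2A, H2B and the linker histone. Hist1h2aa was highest in preleptotene-like cells of all 4 libraries, at 28.3 (22.1 to 35.8) CPM on culture day 2, 95.3 (81.4 to 111) on culture day 7, 55.1 (46.5 to 64.8) at 9 dpp and 130.2 (117 to 145) at 14 dpp. In undifferentiated spermatogonia-like cells it had 4.42, 2.42, 0.722 and 1.92 CPM. Differentiating spermatogonia-like cells had 11.8, 49.6, 14.8 and 27.4 CPM, between these 2 sets in each library. It was also below the preleptotene-like level in leptotene/zygotene-like cells, with 22.9, 14.7, 13.6 and 52.3 CPM. After each cell was thinned to 2000 UMIs, a Hist1h2aa UMI was found in 5.86%, 14.3%, 9.32% and 22.1% of preleptotene-like cells, and in at most 0.187% of mesenchymal-like cells, which should lack it.

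Hist1h2ba was lower in spermatogonia-like than in preleptotene-like cells. It had 1.86, 3.22, 0.563 and 1.68 CPM in differentiating spermatogonia-like cells of culture day 2, culture day 7, 9 dpp and 14 dpp. In preleptotene-like cells it had 5.67, 13.2, 6.08 and 13.7 CPM. Leptotene/zygotene-like cells had 12.1 (5.55 to 23.0), 16.2 (11.1 to 22.9), 13.6 (4.42 to 31.7) and 18.3 (13.2 to 24.7) CPM, which overlap the preleptotene-like intervals in each library. In pachytene-like cells culture day 7 had 17.5 (13.4 to 22.4) CPM and 14 dpp 6.91 (4.56 to 10.1) CPM, a log2 ratio of 1.34 (0.67 to 2.05).

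Hist1h1t was barely detected, with 9, 35, 11 and 47 UMIs deposited for culture day 2, culture day 7, 9 dpp and 14 dpp. Its pachytene-like level was 5.55 (3.39 to 8.57) CPM on culture day 7 and 3.59 (1.96 to 6.02) CPM at 14 dpp, and these intervals overlap. In preleptotene-like cells of the same libraries Hist1h1t had 1.15 and 1.53 CPM. In mesenchymal-like cells of culture day 7 and of 14 dpp Hist1h1t had 0 UMIs in each library, which allows up to 0.413 and 0.574 CPM at 3 counts.

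Hist3h2a, Hist1h2bc and Hist1h1c stood highest in somatic sets, with the pachytene-like cells as an exception for Hist3h2a. Hist3h2a encodes an H2A outside the main histone cluster, at chr11:58954685-58956830 on the forward strand. In Sertoli-like cells it had 62.4 (56.7 to 68.5) CPM on culture day 2, 77.7 (71.2 to 84.7) on culture day 7, 94.8 (89.9 to 99.8) at 9 dpp and 72.4 (67.8 to 77.2) at 14 dpp. Undifferentiated, differentiating and preleptotene-like cells had at most 4.18 CPM of it, reached in the preleptotene-like cells of 9 dpp. Pachytene-like cells were high again, with 66.1 (57.9 to 75.0) CPM on culture day 7 and 73.8 (65.5 to 82.8) CPM at 14 dpp, against 5.08 and 7.41 CPM in leptotene/zygotene-like cells. The 8 Sertoli markers summed to 68.3 and 239 CPM in these pachytene-like cells of culture day 7 and 14 dpp, against 15928 and 19684 CPM in the Sertoli-like cells of the same libraries.

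The 2 reported H2A genes of the Hist2 cluster on chromosome 3 showed a like pattern at lower levels, described after their values were seen. Hist2h2aa1, whose 3′ end is shared with a copy, had 8.19, 4.87, 14.1 and 12.2 CPM in Sertoli-like cells of culture day 2, culture day 7, 9 dpp and 14 dpp. In pachytene-like cells Hist2h2aa1 had 5.27 CPM on culture day 7 and 19.2 CPM at 14 dpp, a log2 ratio of -1.86 (-2.67 to -1.12). Hist2h2ac, with no shared 3′ end, had 3.53, 1.77, 6.01 and 8.57 CPM in Sertoli-like cells, and 4.44 and 14.3 CPM in pachytene-like cells, a log2 ratio of -1.69 (-2.59 to -0.87). In preleptotene-like cells both genes stood at or below 1.53 CPM in the 4 libraries. The pachytene-like cells of culture day 7 thus had less of these Hist2 genes than those of 14 dpp, while their Hist3h2a intervals overlapped. The 9 pachytene markers summed to 5916 CPM, a median of 41 UMIs per cell, in the pachytene-like cells of culture day 7 and to 10807 CPM, a median of 124, in those of 14 dpp. The part of this difference in the pachytene-like histone ratios was not tested.

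Hist1h2bc, an H2B gene whose annotated transcript has a second exon, was detected in Sertoli-like cells at 10.9 (8.58 to 13.6) CPM on culture day 2, 19.9 (16.7 to 23.6) on culture day 7, 86.1 (81.5 to 90.9) at 9 dpp and 145 (138 to 151) at 14 dpp. Leydig-like cells, the steroid-making cells between the tubules, had 38.8 (22.6 to 62.1), 64.7 (45.1 to 90.04), 209.6 (181 to 241) and 496 (452 to 543) CPM from 51 to 64 cells. In mesenchymal-like cells it had 21.6, 21.6, 44.2 and 53.7 CPM. Both culture libraries were below both in vivo libraries in each of these sets. The macrophage-like sets, which held 10 to 48 cells and were not compared, had 309, 313, 65.6 and 59.0 CPM of Hist1h2bc. Germ-like stages had between 0 and 6.54 CPM. After thinning to 2000 UMIs, 1.88% and 2.86% of cultured Sertoli-like cells had a Hist1h2bc UMI, against 11.7% at 9 dpp and 22.2% at 14 dpp, with 0.287% to 1.01% in germ-like cells.

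Hist1h1c, a linker histone gene made in many cell types, was highest in mesenchymal-like or Leydig-like cells in every library. It had 29.9, 22.9, 42.4 and 48.6 CPM in mesenchymal-like cells of culture day 2, culture day 7, 9 dpp and 14 dpp. In Sertoli-like cells the values were 6.63, 7.96, 26.9 and 21.1 CPM. Both somatic sets were lower in both cultures than in vivo. In preleptotene-like cells Hist1h1c had 8.50, 19.5, 7.599 and 17.2 CPM, without that order.

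The other genes of the 10 highest were spread over more sets. Hist1h1e, another linker histone gene, had 15.4, 41.9, 14.4 and 35.9 CPM in preleptotene-like cells of culture day 2, culture day 7, 9 dpp and 14 dpp. Hist1h4i and Hist1h4d encode H4. Hist1h4i was at 10.8, 14.2, 27.2 and 20.5 CPM in leptotene/zygotene-like cells, and Hist1h4d at 1.35, 3.05, 2.72 and 13.5 CPM. Hist1h2ae, an H2A gene, was at 6.63, 8.05, 8.56 and 13.6 CPM in undifferentiated spermatogonia-like cells and at 0, 0.508, 0 and 1.31 CPM in leptotene/zygotene-like cells. The remaining 40 reported genes had between 50 and 810 UMIs over the 4 libraries, and most of them too few for a level in each stage. Of the 52 reported genes, 20 had the same highest set at 9 dpp and 14 dpp, and 9 had it in all 4 libraries, where 59.5% and 32.8% of all genes tested did. Only sets of at least 50 cells were ranked, so a gene highest in pachytene-like cells of the later age could not match the earlier libraries. The interval of the highest set lay above that of the next set for 3 of the 52 genes on culture day 2, 6 on culture day 7, 10 at 9 dpp and 8 at 14 dpp. The share over all genes tested was not computed for this, so these counts have no background to be read against.

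**Figure D2:**
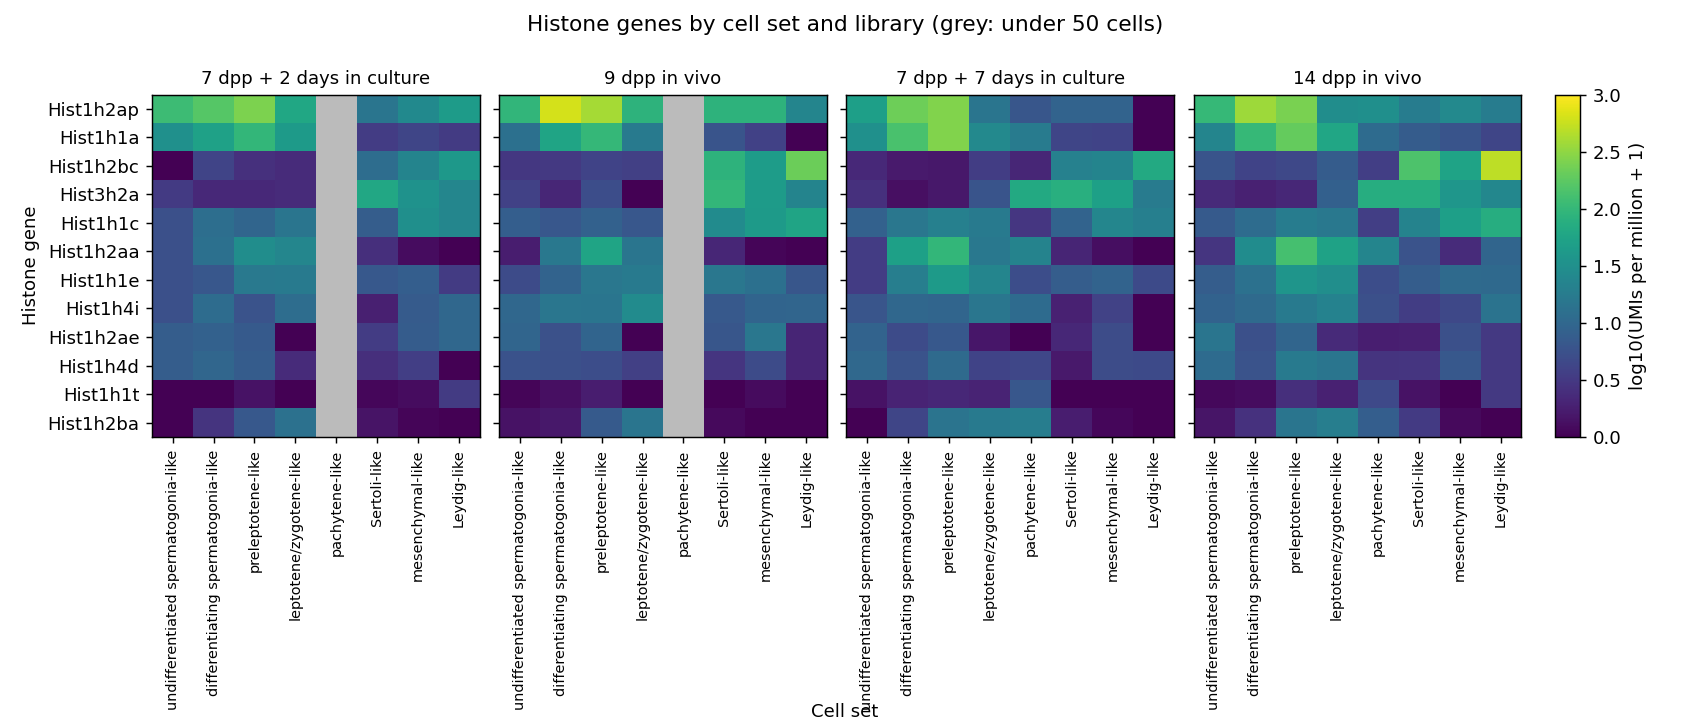
Level of 12 histone genes in 8 cell sets, 1 panel per library, as log10 of CPM plus 1. Grey marks the pachytene-like set where it held under 50 cells. Hist1h2ap and Hist1h1a are bright in differentiating and preleptotene-like cells, Hist1h2aa is brightest in preleptotene-like cells, and Hist1h2bc, Hist3h2a and Hist1h1c in Sertoli-, mesenchymal- or Leydig-like cells.

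Among the germ stages, the level summed over all 67 genes was highest in the differentiating spermatogonia-like and preleptotene-like sets. At 9 dpp the sum was 193 (184 to 202) CPM in undifferentiated spermatogonia-like, 799 (780.2 to 817) in differentiating, 688 (656 to 720.1) in preleptotene-like and 218 (173 to 271) in leptotene/zygotene-like cells. At 14 dpp the same sets had 221, 588, 748 and 323 CPM, and pachytene-like cells 221. On culture day 7 they had 157, 513, 799 and 181 CPM, and pachytene-like cells 184. On culture day 2 they had 214, 341, 495 and 232 CPM. Preleptotene-like cells were the highest of these stages in 3 libraries, and differentiating spermatogonia-like cells at 9 dpp. Leydig-like cells had 219, 163, 379 and 703 CPM on culture day 2, culture day 7, 9 dpp and 14 dpp, and at 14 dpp they stood above the differentiating set. Without Hist1h2ap, the preleptotene-like set was the highest stage on culture day 2, culture day 7, 9 dpp and 14 dpp, at 239, 531, 294 and 501 CPM, and the differentiating set of 9 dpp had 158 CPM.

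**Figure D3:**
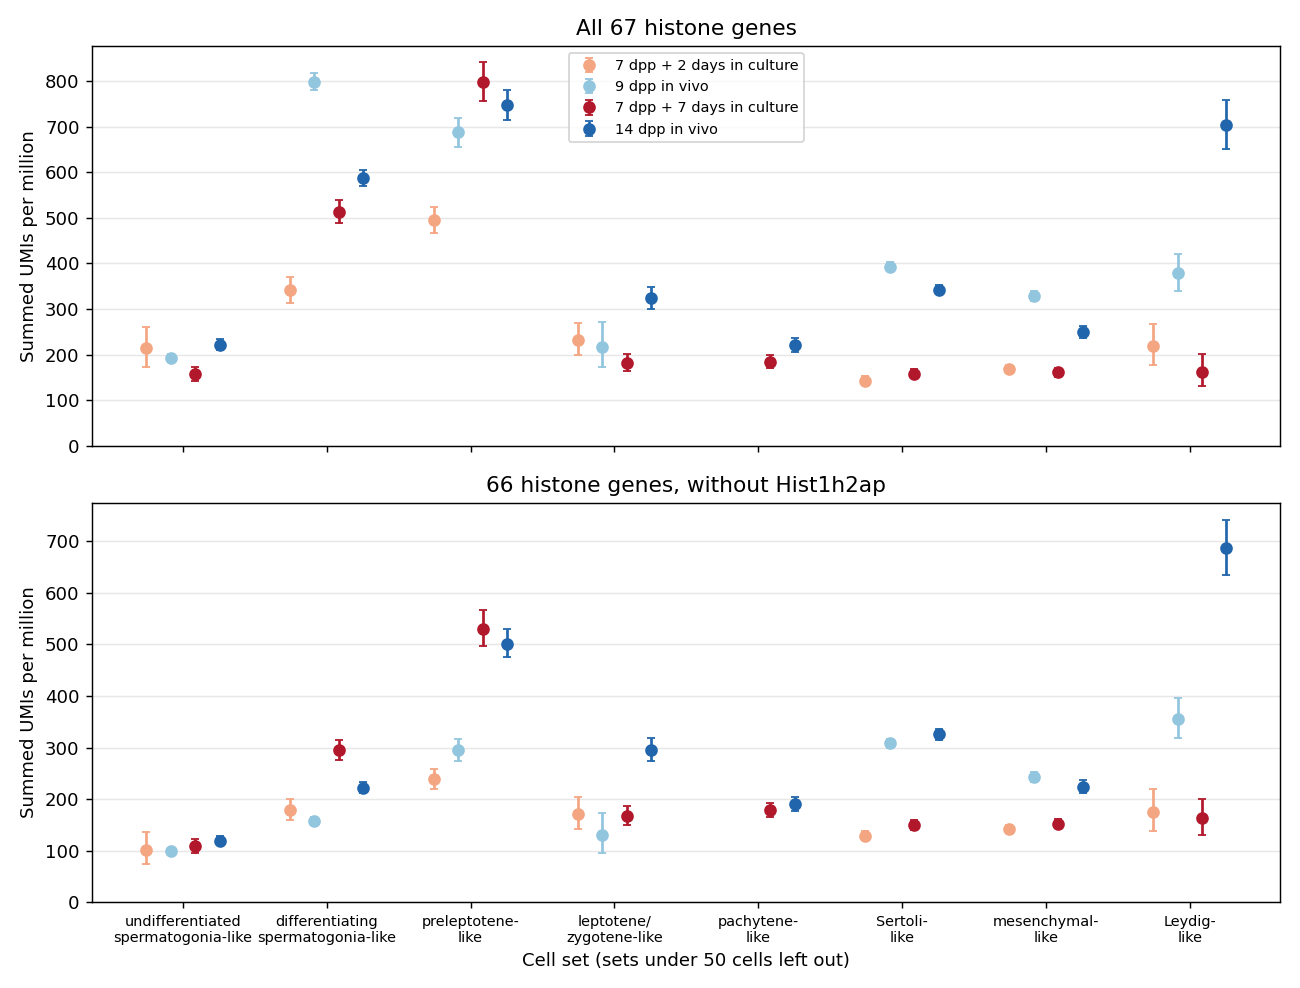
Summed level of the histone genes in each cell set and library, in CPM, for all 67 genes (top) and without Hist1h2ap (bottom). Points are single libraries and bars exact Poisson intervals at 95% (counting error only). The 9 dpp differentiating set is at 799 in the top panel and at 158 in the bottom one, and the cultured Sertoli-like sets lie below both in vivo ones in both panels.

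The younger pair set culture day 2 against 9 dpp testis. Log2 ratios below are culture over in vivo, with exact intervals at 95% for counting error. The histone sum was 1.90-fold lower in culture, a log2 ratio of -0.92 (-0.96 to -0.89), where the median over 16702 genes was -0.14. Without Hist1h2ap it was -0.45 (-0.49 to -0.40). By set, the ratio was -0.50 (-0.55 to -0.45) in germ-like, -1.46 (-1.56 to -1.36) in Sertoli-like and -0.96 (-1.05 to -0.88) in mesenchymal-like cells. In germ-like cells the sign turned without Hist1h2ap, to 0.33 (0.25 to 0.40), while Sertoli-like and mesenchymal-like cells stayed lower at -1.25 (-1.35 to -1.15) and -0.76 (-0.86 to -0.67). Depth differed too, with a median of 3227 UMIs per Sertoli-like cell on culture day 2 and 14000 at 9 dpp, and its part in these ratios was not tested. The germ markers stood in Sertoli-like cells at 3.61% and 5.52% of their germ-like level.

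Past a fold of 2, with 0.1 CPM added to both levels, 8 of the 52 histone genes were lower on culture day 2, where 7.96% of all genes tested were, and 1 was higher, where 6.61% were. With 1 CPM added in place of 0.1, 2 were lower beside 3.39% of all genes and 0 higher beside 4.17%. With 0.1 CPM added the median was -0.33 and 41 lay below 0, where all 16702 genes also had a median below 0, at -0.14. In germ-like cells 3 of 43 were lower and 3 higher, beside backgrounds of 6.21% lower and 3.11% higher, and adding 1 CPM left 1 on each side, beside 3.18% of all genes lower and 182 of 14549 higher. With 0.1 CPM added the germ-like median was 0.14. In Sertoli-like cells 10 of 19 were lower and 0 higher, beside 8.44% lower and 8.03% higher, and the median was -1.02 against -0.12 over all genes. In mesenchymal-like cells 7 of 17 were lower and 0 higher, beside 9.66% lower and 6.45% higher. Genes had to reach 50 UMIs in the set to be counted, so most histone genes are missing from the somatic counts, and a gene that reached this number through 1 library only had to differ.

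Hist1h2ap was lower in germ-like cells of culture day 2, with a log2 ratio of -1.06 (-1.13 to -0.997), in Sertoli-like cells with -2.65 (-2.97 to -2.35) and in mesenchymal-like cells with -1.75 (-1.95 to -1.56). Within the differentiating set its ratio was -1.98 (-2.17 to -1.80), and within the preleptotene-like set -0.62 (-0.76 to -0.48). Hist1h2bc had -2.99 (-3.34 to -2.65) in Sertoli-like and -2.43 (-3.24 to -1.72) in Leydig-like cells. The Leydig-like sets differed in make-up, with Leydig markers at 9308, 10903, 17905 and 12102 CPM, Sertoli markers at 379, 839.8, 1487 and 1401 CPM and mesenchymal markers at 555, 851, 1338 and 1145 CPM on culture day 2, culture day 7, 9 dpp and 14 dpp. The part of these in the Leydig-like ratios was not tested. Hist1h1c had -2.02 (-2.49 to -1.58) in Sertoli-like cells, and Hist1h4i -2.80 (-4.28 to -1.62). On the other side, germ-like cells of culture day 2 had more Hist1h1a, with 0.57 (0.44 to 0.70), more Hist1h2aa, with 0.53 (0.28 to 0.77), and more Hist1h2ba, with 1.40 (0.78 to 2.02). Within preleptotene-like cells alone, Hist1h1a had -0.03 (-0.29 to 0.22) and Hist1h2aa -0.96 (-1.39 to -0.54), so neither gene was higher within that stage. The preleptotene-like sets themselves differed in stage markers, with 2538 CPM of the 4 preleptotene markers and 2016 CPM of the 11 leptotene/zygotene markers on culture day 2 against 3137 and 3030 CPM at 9 dpp. On culture day 7 they had 2911 and 2797 CPM and at 14 dpp 3765 and 4228 CPM, and the part of this in the preleptotene-like ratios here and below was not tested. Preleptotene-like cells numbered 610 of 2822 germ-like cells on culture day 2 and 334 of 2529 at 9 dpp. In the same order, undifferentiated spermatogonia-like cells numbered 69 and 595, differentiating ones 330 and 710, and leptotene/zygotene-like cells 290 and 61. The part of this stage make-up in the germ-like ratios was not tested.

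The older pair set culture day 7 against 14 dpp testis. The histone sum was 1.42-fold lower in culture, a log2 ratio of -0.50 (-0.54 to -0.47), and without Hist1h2ap -0.31 (-0.35 to -0.27). By set it was -0.30 (-0.34 to -0.25) in germ-like, -1.12 (-1.22 to -1.02) in Sertoli-like, -0.63 (-0.75 to -0.52) in mesenchymal-like and -2.11 (-2.45 to -1.79) in Leydig-like cells. Without Hist1h2ap the germ-like ratio was 0.10 (0.05 to 0.15), again on the other side of 0, and the Sertoli-like ratio -1.12 (-1.22 to -1.02). The median UMIs per Sertoli-like cell were 9386 on culture day 7 and 10006 at 14 dpp. The germ markers stood in Sertoli-like cells at 4.34% of their germ-like level on culture day 7 and at 16.7% at 14 dpp, and the part of this or of depth in the ratios was not tested. Within stages, the ratio of the whole sum was -0.20 (-0.28 to -0.11) in differentiating spermatogonia-like, 0.10 (-0.01 to 0.19) in preleptotene-like and -0.84 (-1.02 to -0.65) in leptotene/zygotene-like cells.

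Past a fold of 2, 7 of 52 histone genes were lower on culture day 7 beside 5.96% of all genes, and 1 was higher beside 6.60%. With 1 CPM added these were 3 beside 2.66% and 0 beside 3.58%. In germ-like cells 4 of 43 were lower and 0 higher, beside 5.72% and 1.97%, and adding 1 CPM left 1 lower, beside 2.24%. In Sertoli-like cells 10 of 19 were lower and 1 higher, beside 9.96% and 12.1%, with a median of -1.07 against -0.01. In mesenchymal-like cells 7 of 17 were lower and 0 higher, beside 6.41% and 6.04%, with a median of -0.70. The culture pairs use separate libraries. Hist1h2bc was the 1 gene of 52 past a fold of 2 on the same side in both pairs over all cells, at -1.54 (-1.69 to -1.38) and -1.84 (-1.97 to -1.71), where 2.94% of all 16702 genes were lower past it in both. Of the histone genes 31 of 52 lay below 0 in both pairs and 6 above 0, beside 40.2% and 27.9% of all genes. In Sertoli-like cells 4 of 19 genes were lower past a fold of 2 in both pairs, namely Hist1h2bc, Hist1h4i, Hist1h2ap and Hist1h1c, beside 3.91% of all genes tested there, and 14 lay below 0 in both, beside 38.0%. For Hist1h2ap, the part of the germ marker RNA in Sertoli-like cells of 14 dpp, given above, was not tested. In mesenchymal-like cells 4 of 17 were lower past it in both, namely Hist1h2bc, Hist1h2ap, Hist1h1b and Hist2h4, beside 3.56%, and 13 lay below 0 in both, beside 42.5%. The 1 gene higher past it in Sertoli-like cells of the older pair was Hist2h2be, an H2B gene of the Hist2 cluster, with 4.28 CPM on culture day 7 and 0.773 CPM at 14 dpp, a log2 ratio of 2.47 (1.39 to 3.67).

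Hist1h2bc had an older-pair ratio of -2.86 (-3.12 to -2.61) in Sertoli-like cells, -2.94 (-3.48 to -2.44) in Leydig-like cells and -1.31 (-1.60 to -1.03) in mesenchymal-like cells. Hist1h2ap had -0.90 (-0.96 to -0.83) in germ-like cells, -0.75 (-0.87 to -0.63) within the differentiating set and 0.12 (-0.05 to 0.29) within the preleptotene-like set, where the interval includes 0. In pachytene-like cells Hist1h2ap had -2.53 (-3.31 to -1.82). Hist1h1a had 0.30 (0.21 to 0.38) in germ-like cells and Hist1h2aa 0.07 (-0.07 to 0.21). Over all cells Hist3h2a had -0.32 (-0.44 to -0.21) in the younger pair and 0.21 (0.11 to 0.32) in the older pair, and Hist1h1e -0.42 (-0.65 to -0.19) and 0.20 (0.03 to 0.37), so these genes lay on opposite sides of 0 in the 2 pairs.

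**Figure D4:**
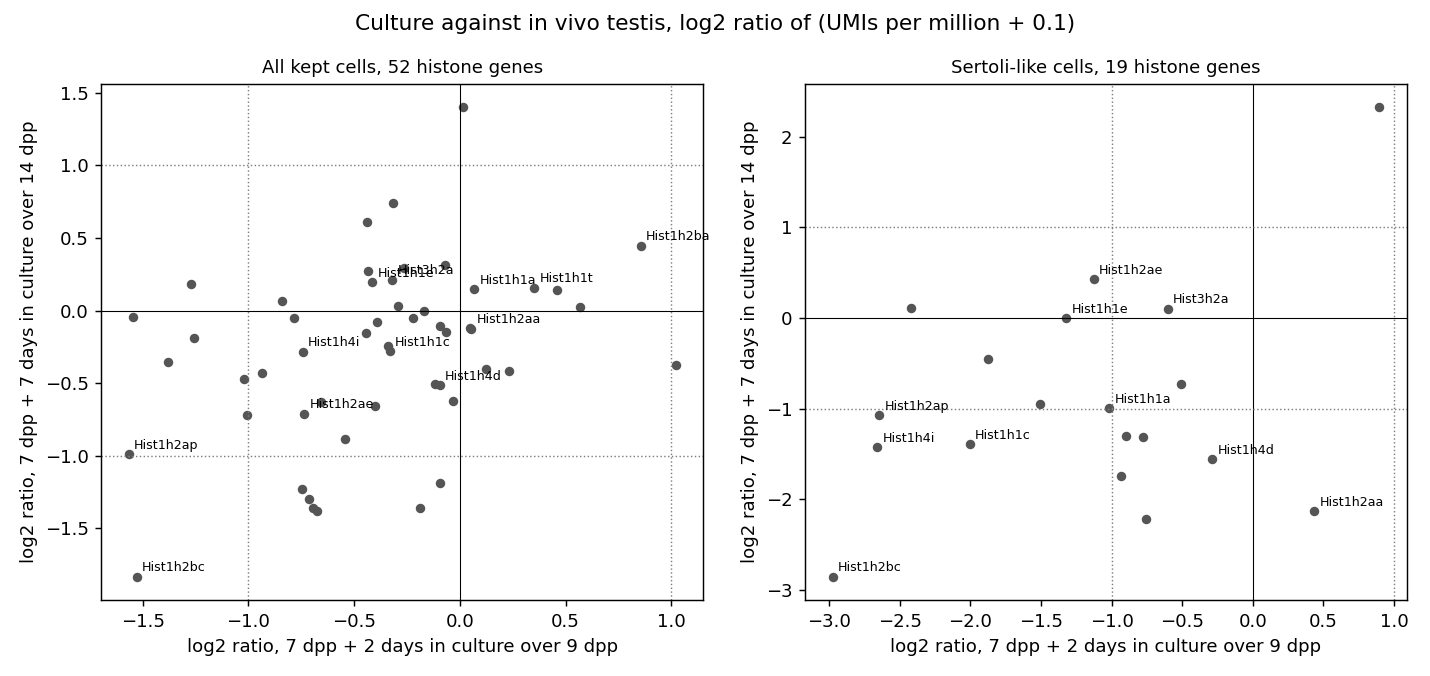
Log2 ratio of culture over in vivo for each histone gene in the younger pair (x axis) and the older pair (y axis), with 0.1 CPM added, over all kept cells (left, 52 genes) and in Sertoli-like cells (right, 19 genes). Each point is 1 gene, dotted lines mark a fold of 2, and points in the lower left corner are past it on the lower side in both pairs: Hist1h2bc on the left, and Hist1h2bc, Hist1h4i, Hist1h2ap and Hist1h1c on the right.

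Other gene lists were read in the same way. Of 29 S phase genes, such as Mcm2 and Pcna, 1 was past a fold of 2 on the lower side in the younger pair over all cells and 0 in the older pair, beside 7.96% and 5.96% of all genes, with medians of -0.26 and -0.19. In Sertoli-like cells 8 of 29 S phase genes and 18 of 19 G2/M genes, such as Mki67 and Top2a, were lower past a fold of 2 on culture day 2. In the older pair these counts were 6 of 29 and 13 of 19. The shares over all genes tested in Sertoli-like cells were 8.44% lower and 8.03% higher in the younger pair, and 9.96% and 12.1% in the older pair. In mesenchymal-like cells 4 of 29 S phase and 4 of 19 G2/M genes were lower past a fold of 2 in the younger pair, beside 9.66% of all genes, with medians of -0.49 and -0.65. In the older pair they were 4 and 9, beside 6.41%, with medians of -0.53 and -0.90. The part of these lists in the lower histone values of cultured Sertoli-like and mesenchymal-like cells was not tested. In germ-like cells 0 of the 29 and 0 of the 19 were past a fold of 2 on either side in both pairs, beside 6.21% lower and 3.11% higher of all genes in the younger pair and 5.72% and 1.97% in the older pair. Of 15 genes that process histone messenger RNA, among them Slbp, Lsm10 and Lsm11, 0 passed a fold of 2 in either culture pair over all cells or in germ-like cells, and 0 of the 14 with enough UMIs did in Sertoli-like or mesenchymal-like cells. Of 17 histone chaperone genes, 3 were lower in Sertoli-like cells in the younger pair and 2 in the older pair. Of 11 replacement histone genes, which are made outside S phase, 1 was higher and 1 lower in Sertoli-like cells of the younger pair, and 2 were higher in the older pair.

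The 2 in vivo libraries gave the change with age, and each of them also serves in 1 culture pair, so these comparisons share libraries with those above. The sum was -0.17 (-0.20 to -0.15) on the log2 scale, 14 dpp over 9 dpp, and 0.29 (0.26 to 0.33) without Hist1h2ap. In germ-like cells it was -0.25 (-0.28 to -0.22), and 0.55 (0.50 to 0.61) without Hist1h2ap, so that gene alone set the sign in both. Over all cells 3 of 52 genes were higher past a fold of 2 at 14 dpp, beside 7.01% of all genes, and 5 lower, beside 4.60%. Adding 1 CPM left 2 higher, beside 4.07%, and 0 lower, beside 1.96%, so the 5 lower calls were all lost. In germ-like cells 9 of 43 were higher, beside 7.02%, and 2 lower, beside 3.66%. With 1 CPM added, 4 were higher in germ-like cells, beside 5.01%, and 1 lower, beside 1.04%. The testis genes were among the higher ones, with germ-like ratios of 1.32 (1.15 to 1.49) for Hist1h2aa, 1.84 (1.36 to 2.35) for Hist1h2ba and 2.19 (0.998 to 3.61) for Hist1h1t. Hist3h2a had 2.33 (1.94 to 2.74) in germ-like cells and -0.39 (-0.51 to -0.27) in Sertoli-like cells. Germ-like cells included 61 leptotene/zygotene-like and 10 pachytene-like cells at 9 dpp, and 495 and 182 at 14 dpp. The part of this in the germ-like ratios and counts was not tested. Hist1h1a had 0.82 (0.72 to 0.92) in germ-like cells, and within preleptotene-like cells alone 0.98 (0.76 to 1.20). Hist1h2ap had -0.79 (-0.84 to -0.75) in germ-like cells, -0.81 (-0.87 to -0.74) in the differentiating set and -2.31 (-2.52 to -2.11) in Sertoli-like cells.

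The 2 culture libraries gave the change with culture time. The sum was 0.24 (0.20 to 0.29) on the log2 scale, culture day 7 over day 2, over all cells, and -0.05 (-0.10 to 0.01) in germ-like cells, where the interval includes 0 and the value without Hist1h2ap was 0.33 (0.26 to 0.40). Over all cells 7 of 52 genes were higher past a fold of 2, beside 8.17% of all genes, and 4 lower, beside 4.66%. Adding 1 CPM left 3 higher, beside 4.50%, and 1 lower, beside 2.35%. In germ-like cells 9 of 43 were higher, beside 8.17%, and 5 lower, beside 7.08%. With 1 CPM added, 3 were higher in germ-like cells, beside 5.65%, and 2 lower, beside 2.50%. Hist1h1a had 1.05 (0.93 to 1.18) over all cells and 1.47 (1.24 to 1.70) within preleptotene-like cells. In the same preleptotene-like cells Hist1h2aa had 1.75 (1.34 to 2.17) and Hist1h2ap 0.07 (-0.11 to 0.24). Hist1h2aa, Hist1h2ba and Hist1h1t had 1.39 (1.17 to 1.60), 1.85 (1.40 to 2.32) and 1.92 (0.79 to 3.24) over all cells. Hist3h2a had 2.84 (2.24 to 3.51) in germ-like cells. Both pachytene-like sets with at least 50 cells, where Hist3h2a is high, are in the libraries of the later age. Pachytene-like cells numbered 19 on culture day 2 and 261 on culture day 7, and leptotene/zygotene-like cells 290 and 377. The part of this in the germ-like ratios and counts was not tested.

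Within libraries, histone levels were set beside the 29 genes of the S phase list, which holds no histone gene, after thinning every cell to 2000 UMIs and leaving out 1301, 257, 95 and 275 shallower cells of culture day 2, culture day 7, 9 dpp and 14 dpp. Cells are not replicates, and this is a description. In mesenchymal-like cells with at least 3 list UMIs the histone sum was 426 CPM on culture day 2 against 111 in cells with 0. The pairs of values were 313 and 129 on culture day 7, 606 and 239.9 at 9 dpp, and 589 and 189 at 14 dpp. In all 4 libraries the mesenchymal-like cells with list UMIs had the higher sum. In Sertoli-like cells the values were 200 and 139, 271 and 112, 554 and 325, and 286 and 312 CPM in the same order. The ratio's interval included 0 on culture day 2 and at 14 dpp for these cells. The share of Sertoli-like cells with at least 3 list UMIs was 10.1% on culture day 2, 4.57% on culture day 7, 16.1% at 9 dpp and 9.29% at 14 dpp. These were 75, 24, 140 and 84 cells. For mesenchymal-like cells it was 10.1%, 4.65%, 17.8% and 9.00%.

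Hist1h2ap was high in mesenchymal-like cells with S phase list UMIs and close to 0 in those with none. In mesenchymal-like cells of culture day 2 it had 134 CPM with at least 3 list UMIs and 1.37 CPM with 0. On culture day 7 it had 112 and 0.625 CPM, at 9 dpp 336 and 3.11 CPM, and at 14 dpp 203 and 2.71 CPM. The lower values rest on 3, 1, 4 and 3 UMIs, and the log2 ratios were 6.61 (4.99 to 8.93), 7.48 (4.78 to 12.88), 6.76 (5.38 to 8.65) and 6.23 (4.57 to 8.57). In Sertoli-like cells with at least 3 list UMIs and with 0, Hist1h2ap had 40.0 and 13.7 CPM on culture day 2, 104 and 2.28 on culture day 7, 239 and 13.7 at 9 dpp, and 17.9 and 4.08 at 14 dpp. The value of 104 CPM comes from 24 cells, under the 50 cells asked of a set elsewhere. The log2 ratios were 1.55 (-0.26 to 3.26), 5.51 (2.35 to 11.08), 4.13 (3.07 to 5.40) and 2.13 (-0.77 to 5.03), so the interval includes 0 on culture day 2 and at 14 dpp. Among Sertoli-like cells with at least 3 list UMIs, culture over in vivo was -2.58 (-4.08 to -1.38) for Hist1h2ap in the younger pair. In the older pair it was 2.54 (0.18 to 5.23), on the other side of 0 from the whole Sertoli-like set. The histone sum had -1.47 (-2.08 to -0.90) and -0.08 (-1.09 to 0.83) there. For Hist3h2a no such difference was seen, with 30.2 and 41.9 CPM in mesenchymal-like cells of 9 dpp and a ratio of -0.47 (-1.38 to 0.35), an interval that includes 0 in the other 3 libraries as well. Hist1h2bc went the other way at 9 dpp, with 9.43 and 56.7 CPM and a ratio of -2.59 (-4.25 to -1.30), and its interval included 0 in the other 3 libraries. Hist1h1c differed in both directions, with 1.49 (0.84 to 2.12) on culture day 2 and -1.39 (-2.36 to -0.54) at 9 dpp. Not every gene chosen by symbol thus went with the S phase list.

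Between 82.8% and 93.8% of germ-like cells had at least 3 list UMIs, so these were put in bands. The histone sum, over all members, was 209 (171 to 254) CPM in 9 dpp germ-like cells with 0 to 2 list UMIs and 845 (799 to 892) CPM in those with 9 or more. At 14 dpp it was 225 and 739 CPM, on culture day 7 148 and 719.6 CPM, and on culture day 2 207 and 503 CPM. Over all germ-like cells the sum was higher in each band than in the one before it in all 4 libraries. Within single stages, over bands of at least 20 cells, this order held in preleptotene-like and pachytene-like cells of each library with such bands. It did not hold in undifferentiated cells of culture day 2 and 9 dpp, in differentiating cells of culture day 2, or in leptotene/zygotene-like cells of culture day 2, culture day 7 and 14 dpp, and in each of these the intervals of the neighbouring bands out of order overlapped. Leptotene/zygotene-like cells of culture day 7, for example, had 188, 103, 301 and 389 CPM from the lowest band to the highest, and those of culture day 2 196, 190.5, 175 and 291 CPM. In the highest band culture day 2 was the lowest library, and its interval of 503 (469 to 539) CPM lay below the intervals of the other 3 libraries.

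Hist1h2ap followed the same order, from 112 to 629.6 CPM at 9 dpp, from 56.7 to 335 at 14 dpp, from 19.1 to 282 on culture day 7 and from 57.8 to 280.4 on culture day 2. Within differentiating spermatogonia-like cells alone, the sum in the highest band was 1118 (1025 to 1217) CPM at 9 dpp, 829.6 (747 to 919) at 14 dpp, 606 (511 to 714) on culture day 7 and 506 (402 to 629) on culture day 2. In germ-like cells with 9 or more list UMIs, 9 dpp stood above the other libraries for Hist1h2ap. For Hist1h1a the highest band had 196 (171 to 223) CPM on culture day 7, 139 (124 to 156) at 14 dpp, 81.6 (68.1 to 96.8) on culture day 2 and 68.8 (56.2 to 83.3) at 9 dpp. For Hist1h2aa that band had 75.8 and 89.1 CPM in the libraries of the later age and 35.1 and 32.4 CPM on culture day 2 and at 9 dpp. At the same S phase list level, Hist1h1a and Hist1h2aa were therefore high in the later libraries while Hist1h2ap was high at 9 dpp.

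**Figure D5:**
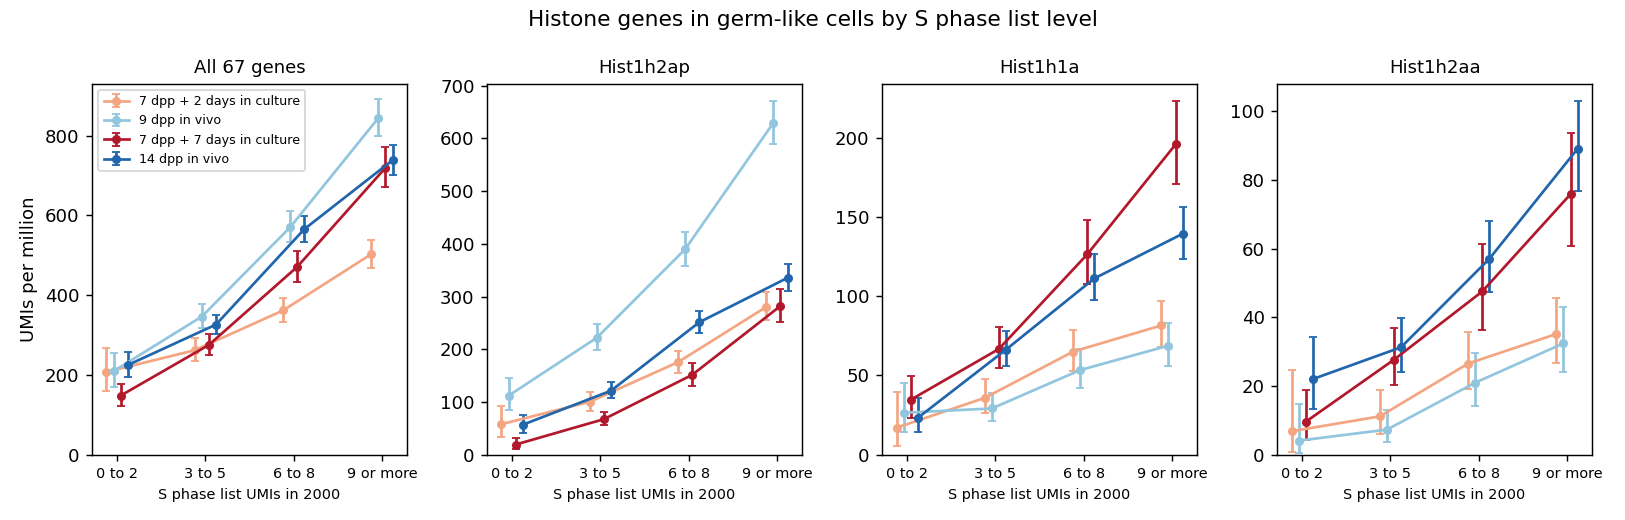
Level in germ-like cells, in CPM, by the number of S phase list UMIs per cell after thinning to 2000 UMIs, for all 67 genes, Hist1h2ap, Hist1h1a and Hist1h2aa. Points are single libraries and bars exact Poisson intervals at 95% (counting error only). Over all germ-like cells the sum lies higher in each band than in the one before, and 9 dpp is the highest library for Hist1h2ap but not for Hist1h1a or Hist1h2aa.

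A histone UMI of any of the 67 genes was found in 31.2%, 33.9%, 43.0% and 46.6% of all thinned cells of culture day 2, culture day 7, 9 dpp and 14 dpp, and in 45.8%, 58.9%, 75.4% and 72.7% of the cells before thinning. Within preleptotene-like cells the thinned shares were 54.6%, 66.9%, 64.9% and 73.5%. Undifferentiated spermatogonia-like cells had 29.0%, 22.0%, 24.4% and 27.4%, the lowest of the stages with at least 50 cells in every library, although in the cultures their intervals overlapped those of later stages.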

How the data were processed

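Single cells of 4 testis libraries were measured. The deposited values are UMI counts per gene and cell barcode, made by the authors with Cell Ranger 3.0.2 on mm10 from 10x Chromium 3′ v2 libraries, per the submitters' processing notes and the labels' protocols. The annotation version is not given in the sources used here. No raw-count row without a gene was present, and 0 columns of other samples were left out.

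A barcode was kept with 500 genes or more and no more than 20% of its UMIs mitochondrial, and doublets were called with Scrublet in scanpy 1.11.5 at an expected 6%, which marked 1.89% to 3.55%. Cells were put into 6 classes by marker genes. A class needed at least 3 UMIs of at least 2 markers, and 3 times the UMIs of the next class, unscaled. Germ-like cells were put into 5 stages (at least 3 UMIs, 1.5 times the next). For stages, each list's share of a cell's UMIs was first divided by its mean over all germ-like cells. UMIs were summed per library and set, and divided by the set's total, per 1000000 (CPM). Intervals are exact at 95% (Poisson, conditional ratio, Clopper-Pearson) and cover counting error only. With 1 library per group no test was run, and edgeR 4.0.16 served only for TMM factors. Fold calls used 0.1 CPM added and genes of at least 50 UMIs in the set. Named were the 10 genes with the most UMIs plus the testis genes Hist1h1t and Hist1h2ba. Computation used Python 3.11.15, scipy 1.17.1 and R 4.3.3. Intervals and thinning were tested on simulated data. The members, lists and thresholds were chosen with earlier results of these data known.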

Additional observations from a re-analysis of the deposited data

Results flagged for a closer look

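Values are log2 ratios of culture over in vivo. In 3 cases the interval of the younger pair lay below 0 and that of the older pair above 0. The difference between the pairs was not tested. Hist3h2a over all cells had -0.32 (culture day 2 over 9 dpp) and 0.21 (culture day 7 over 14 dpp). Hist3h2a in mesenchymal-like cells had -0.42 and 0.41. Hist1h1e over all cells had -0.42 and 0.20. In Sertoli-like cells Hist3h2a had -0.60 and 0.10. Hist1h1e overlaps Hist1h2be on the same strand, and the annotated end of Hist1h1e lies within Hist1h2be.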

How the results depend on the processing

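No paired analysis was possible because each group has 1 library. Keeping doublet calls, or a lower class limit, changed no direction and no count by over 1.5 times. In the following, sums are log2 ratios, counts are genes past a fold of 2, and shares in brackets are those of all genes tested at the same setting.

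Leaving out Hist1h2ap was chosen after seeing the data. Over all cells the sum then had -0.45 (culture day 2 over 9 dpp), -0.31 (culture day 7 over 14 dpp), 0.29 (14 over 9 dpp, reversed from -0.17) and 0.43 (culture day 7 over day 2). In germ-like cells all 4 reversed, to 0.33, 0.10, 0.55 and 0.33. In Sertoli-like cells it had -1.25 (younger pair) and 0.079 (14 over 9 dpp, reversed), and in mesenchymal-like cells -0.76 (younger pair), -0.12 (14 over 9 dpp) and 0.094 (cultures, reversed).

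With TMM factors the all-cell sums were -0.75 (younger pair), -0.14 (14 over 9 dpp) and 0.10 (cultures), and the germ-like ones -0.18 (14 over 9 dpp) and 0.013 (cultures, reversed from -0.05). The Sertoli-like value for age was -0.12, the mesenchymal-like value of the younger pair -0.81, and 2 genes were higher in the younger pair over all cells (8.41%).

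With each cell weighted equally the 4 all-cell sums were -0.85, -0.46, -0.10 and 0.29, and the germ-like ones -0.56, -0.24, -0.14 and 0.18 (reversed). Sertoli-like cells had -1.31 (younger pair), -0.34 (age) and -0.11 (cultures, reversed from 0.14), and mesenchymal-like cultures 0.00465 (reversed from -0.07). With age 5 genes were higher over all cells (6.68%), and between cultures 3 lower in germ-like cells (7.31%).

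With at least 1000 genes and at most 10% mitochondrial UMIs the older pair had -0.59 over all cells and -0.39 in germ-like cells, and the cultures -0.15 in germ-like cells. With age 5 genes were higher over all cells (7.27%) and 1 lower in germ-like cells (3.70%), and between cultures 8 were lower in germ-like cells (7.67%).

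With 1 CPM added, the all-cell counts were 0 higher (4.17%) and 2 lower (3.39%) in the younger pair, 0 (3.58%) and 3 (2.66%) in the older pair, 0 lower (1.96%) with age, and 3 higher (4.50%) and 1 lower (2.35%) between cultures. In germ-like cells they were 1 (182 of 14549 genes) and 1 (3.18%), 1 lower (2.24%), 4 (5.01%) and 1 (1.04%), and 3 (5.65%) and 2 (2.50%). With a minimum of 200 UMIs, which left 29 genes over all cells and 18 in germ-like cells, the all-cell counts were 5 lower (6.30%), 4 lower (4.35%), 2 lower (3.96%), and 4 higher (6.58%) and 2 lower (3.71%). The germ-like ones were 1 lower (4.21%), 2 lower (3.63%), 4 (5.72%) and 1 (2.00%), and 2 (6.57%) and 2 (4.35%). With no minimum 66 genes were counted in germ-like cells, with 6 higher (5.01%) and 6 lower (7.23%), 2 higher (3.14%), 4 lower (4.39%), and 14 (8.61%) and 8 (7.90%).

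With a stage call at 2 times the next stage, the sums were 184 CPM in undifferentiated cells of 9 dpp, 552, 821 and 613 CPM in differentiating cells of culture day 7, 9 dpp and 14 dpp, and 899, 826 and 848 CPM in preleptotene-like cells of the same libraries. They were 165 CPM in leptotene/zygotene-like cells of 9 dpp and 202 CPM in pachytene-like cells of culture day 7. With at least 5 stage UMIs, undifferentiated cells had 140.3 CPM on culture day 7 and 195 CPM at 14 dpp. With a limit of 5 S phase UMIs, the log2 ratio of cells above it over cells with 0 was 2.10, 1.31 and 1.18 over all cells of culture day 7, 9 dpp and 14 dpp, 1.31 in Sertoli-like cells of 9 dpp, and 2.35, 1.75 and 2.10 in mesenchymal-like cells of culture day 2, 9 dpp and 14 dpp. Thinned to 3000 in place of 2000 UMIs, shares of cells with a histone UMI were higher in 17 of 18 stage sets, by up to 12.9 percentage points, with more UMIs left in each cell. The exception was the leptotene/zygotene-like set of 9 dpp, at 36.8%. The cause of the other moves was not tested. Culture day 2 was the shallowest library, and a gene near 50 UMIs carries wide counting error.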
